A study of Arabidopsis thaliana with 6 samples.

Results

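On 6 arrays of Arabidopsis rosette leaves, 55 probe sets had a lower signal at the later endings of the sample code in one of the study's starts and a higher signal at the later endings in the other. The source names end in codes that begin with CL or CV (the start) and close with L, M or H (the ending), as in CLL or CVH, and "later" stands here for M and H against L. No label says what the letters mean, so no light level, time or treatment was assigned to any of them. The 55 were taken from the 4425 non-control probe sets with a mean signal of 20 or more over the 6 arrays, out of 8247 non-control probe sets in all. On the scale log2(signal + 3.9), the mean of CLM and CLH had to lie at least 0.7 below CLL, and the mean of CVM and CVH at least 0.7 above CVL. Probe sets of CSLA01, TBL26, LHCB4.3, DFR and APL3 were left out, of which 3 (CSLA01, LHCB4.3 and APL3) met the thresholds, so that 58 probe sets met them in all. The members were therefore chosen by the signals themselves, and every change from L given below is a description with no test.

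The plants were Ws-2, stock N1601, with no genetic modification, and unshaded rosette leaves were taken at growth stage 3.90 for a study of acclimation to light intensity, per the labels. Each code had 1 array, so there were no replicates, and the number of plants pooled for an array is not stated. All groups share the genotype, the tissue, a normal atmosphere and 60% humidity; the growth records of CLL and CVL also give M2 compost, a dark parameter of 16 hours at 15 °C and watering, which those of the other 4 arrays do not. A pair of defining leaf genes was measured under a name, RCA (Rubisco activase) and PSAE-1 (a photosystem I subunit), with signals between 7548 and 11092 on the 6 arrays, and none of 22 listed markers of root, flower and seed was measured under a name, so tissue purity was not tested.

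Leaves moved between light intensities are known to remodel their antennae and photosystems, their antioxidant and pigment pools, and the stores of starch and lipid that buffer excess carbon. Plastoglobules, the lipid bodies of the chloroplast, take part in this: they store prenyl lipids and swell under strong light, and fibrillins coat their surface. Light and carbon supply also act on leaf growth and on senescence through calcium-binding proteins, transcription factors and inhibitors of the cell cycle.

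The members' levels were high on CLL, CVM and CVH and low on CLM, CLH and CVL. Relative to each member's own mean over the 6 arrays, the median log2 level of the 55 over L, M and H was 0.78, -0.30 and -0.29 in CL, against -0.79, 0.33 and 0.60 in CV. Over the 4425 probe sets the same medians lay between -0.11 and 0.09. In 31 members all 3 of CLL, CVM and CVH lay above all 3 of CLM, CLH and CVL. CLL was the highest array for 31 members, CVH for 14 and CVM for 10, and CVL was the lowest for 34, CLM for 10, CLH for 10 and CVM for 1.

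**Figure D1:**
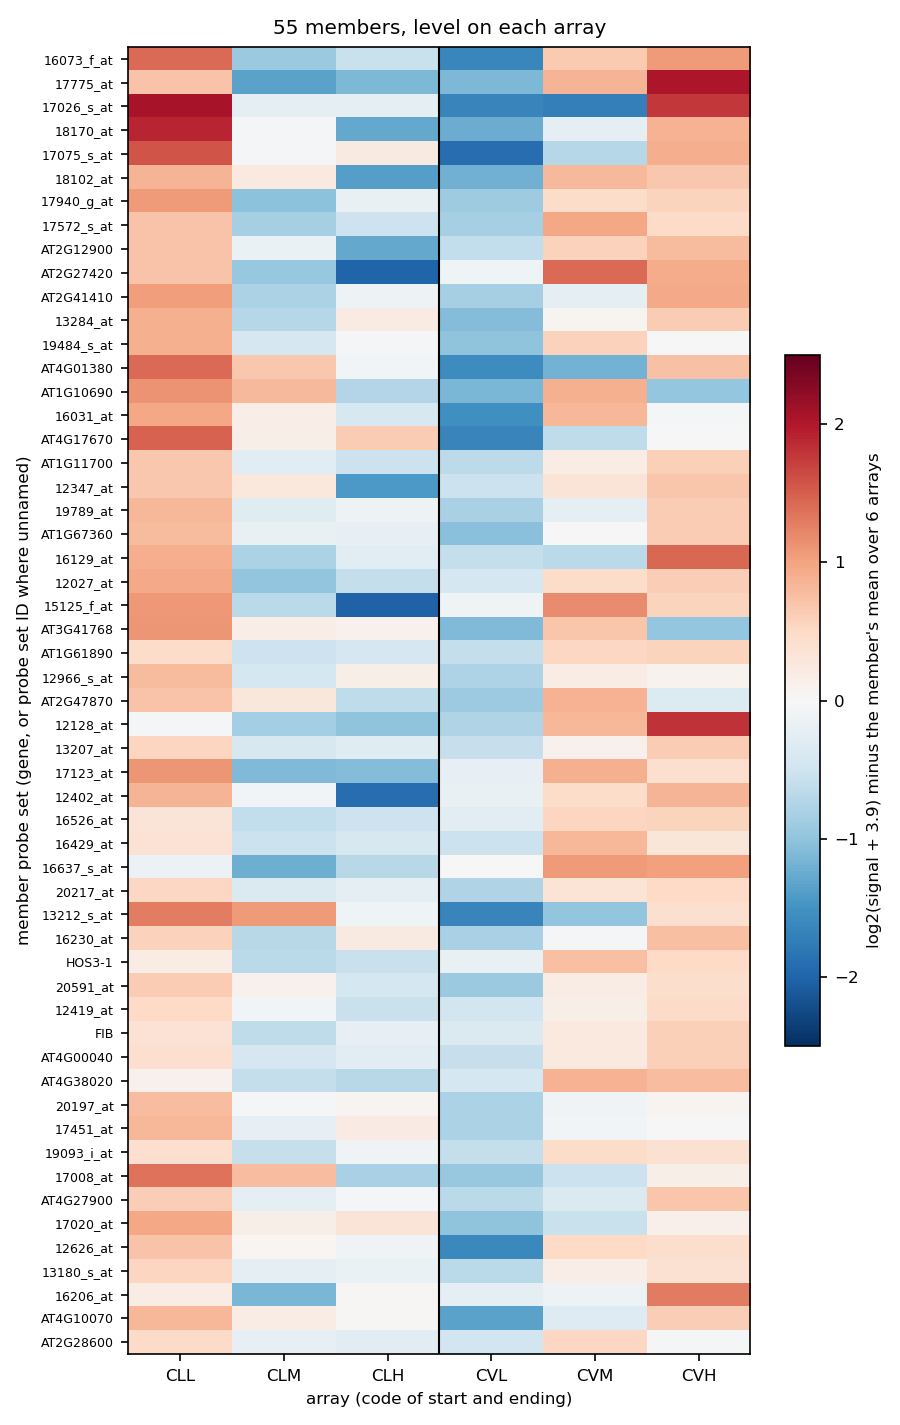
Level of each of the 55 members (rows, ordered by the smaller of the changes in the 2 starts) on each array (columns), as log2(signal + 3.9) minus the member's mean over the 6 arrays; red is above and blue below that mean. CLL, CVM and CVH are mostly red and CLM, CLH and CVL mostly blue, with median levels from -0.79 on CVL to 0.78 on CLL.

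The median change from L was -0.97 in CL (from -2.57 to -0.72) and 1.12 in CV (from 0.72 to 2.56). In linear signal, CLL was 1.63 to 6.95 times the mean of CLM and CLH, with a median of 1.98, and the mean of CVM and CVH was 1.74 to 9.68 times CVL, with a median of 2.54. Of the 4425 probe sets, 6.53% had a fall of this size in CL and 5.29% a rise of this size in CV. The opposite pattern, a later rise in CL and a later fall in CV, was met by 67 probe sets, a later rise in both starts by 18 and a later fall in both by 14. Over the 4425 probe sets the changes in CL and CV had a Pearson correlation of -0.23, which describes probe sets read from the same 6 arrays and not independent replicates.

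**Figure D2:**
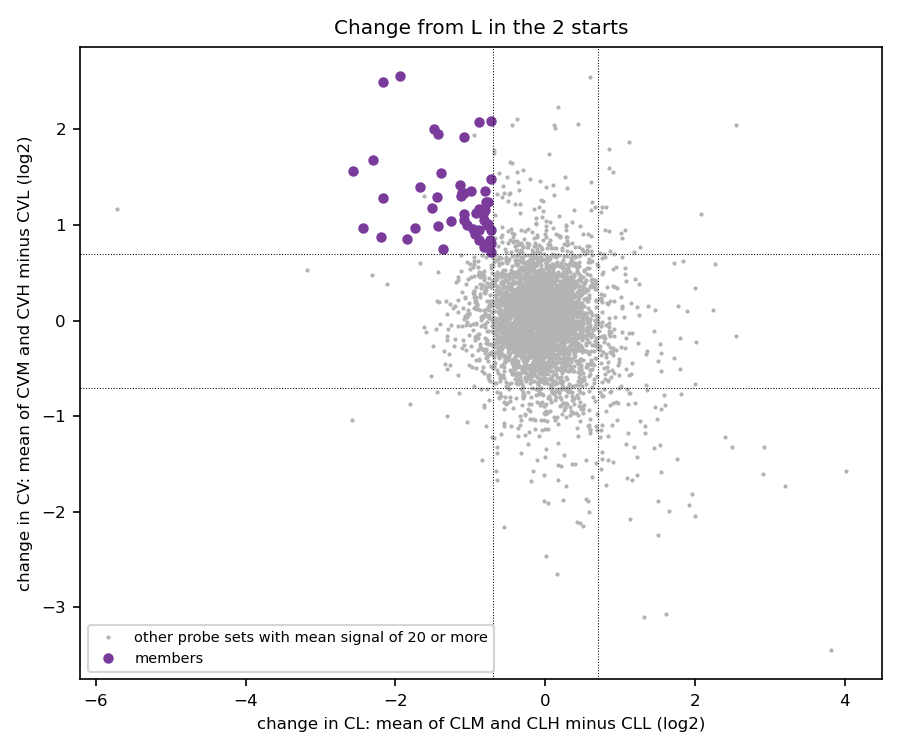
Change from L in CL (x axis, mean of CLM and CLH minus CLL) against change from L in CV (y axis, mean of CVM and CVH minus CVL), both in log2, for 4425 probe sets in grey and the 55 members in purple; dotted lines mark 0.7 in each direction. The members fill the upper left corner because the rule takes them from there.

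In most members both later endings lay on the same side of L as their mean, which the rule favours because it used that mean. Both CLM and CLH were below CLL in all 55, and both CVM and CVH were above CVL in 53. The exceptions in CV were the unnamed probe sets 17026_s_at and 16129_at, whose CVM signals of 4.5 and 31.1 were just below their CVL signals of 4.9 and 32.9. With the M arrays alone as the later value 33 of the 55 still met the thresholds, among 64 probe sets that did so, and with the H arrays alone 37 did, among 77.

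One gene was paired with 18 of the 55 probe sets (32.7%, against 41.9% of the 4425), and 37 are unnamed here. Of the 18, 17 are protein-coding genes and 1 is a ribosomal RNA. They lie on chromosomes 1 to 4, with 4, 5, 1 and 8 genes in that order, and the closest pair is 136 genes apart, so none are neighbours. Members were dimmer than the probe sets they were drawn from, with a median of mean signals of 47.2 against 75.8, and 28 of the 55 (50.9%) had a mean signal under 50, against 35.5%.

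Genes of lipid bodies and fatty acid elongation included the brightest named member. FIB encodes plastoglobulin 35, also called fibrillin 1a, which coats plastoglobules. In CL it read 2900.6 at L, 1462.3 at M and 1957.5 at H, and in CV 1760.8 at L, 2694.1 at M and 3433.0 at H. CLL was thus above both later CL arrays and CVL below both later CV arrays, with changes from L of -0.78 and 0.79. AT1G67360, of the rubber elongation factor and small rubber particle protein family that is found on cytosolic lipid droplets, read 355.3, 178.3 and 176.7 at L, M and H in CL, and 97.6, 205.0 and 321.2 at the same endings in CV. Its CLM and CLH signals were nearly equal, whereas CVH was above CVM. HOS3-1, of the ELO family of fatty acid elongases known from yeast, was at 111.1, 59.6 and 65.7 in CL and 85.6, 166.6 and 139.2 in CV. Both of its later CV signals exceeded CLL.

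Among the genes of signalling and transcription, AT2G41410 encodes a calmodulin-like calcium-binding protein. The CL signals were 305.4 at L, 82.7 at M and 133.0 at H, and the CV signals 80.0, 122.4 and 283.8, so that CVH came close to CLL. A second probe set of this gene, which the rule did not take, had 588.8, 243.8 and 544.0 in CL and 126.0, 345.3 and 547.1 in CV. Its change in CV was 1.76, and its change in CL was -0.69, just short of the threshold, because CLH lay near CLL. Both probe sets read the same RNA, so the second is no independent sample, and AT2G41410 was the only named member with another probe set under its name.

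AT2G12900, which encodes the basic leucine-zipper protein bZIP33, stood at 70.3, 36.1 and 14.6 for L, M and H in CL, and at 25.6, 63.0 and 73.6 in CV. Its order over the endings was strictly reversed between the starts. AT4G27900, of the CCT motif family to which several flowering and clock regulators belong, had 52.4, 27.3 and 32.3 in CL and 19.1, 24.6 and 55.8 in CV, with most of the rise in CV at H. AT4G17670, which encodes a small protein with an FCS-like zinc finger, had 74.6, 27.5 and 40.2 in CL and 5.1, 14.4 and 24.5 in CV. All 3 of its CV signals were below all 3 of its CL signals.

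Growth and senescence were represented by a pair of members. AT1G10690 encodes a SIAMESE-related inhibitor of cyclin-dependent kinases, a family that blocks cell division. It read 69.1, 54.3 and 16.3 over L, M and H in CL, against 11.2, 58.3 and 13.3 in CV. The rise in CV was thus at M, and CVH was only slightly above CVL. AT1G11700, of a plant family named after the senescence-associated S40 gene of barley, had 167.1, 84.7 and 69.9 in CL and 63.5, 116.6 and 158.2 in CV, with CVH near CLL.

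Of the redox, copper and transport proteins, AT1G61890 encodes a MATE transporter, a family that exports metabolites and toxins, and its signal was 123.9, 61.0 and 65.9 in CL and 57.9, 129.5 and 132.8 in CV. Its low arrays CLM, CLH and CVL lay within 57.9 to 65.9 and its high arrays CLL, CVM and CVH within 123.9 to 132.8. AT2G47870, a plant-specific CC-type glutaredoxin gene, had 61.3, 44.6 and 21.6 in CL and 17.4, 69.2 and 27.6 in CV, with CVM the highest of its arrays. AT4G01380, which encodes a protein with a plastocyanin-like copper-binding domain, had 55.6, 31.7 and 17.5 in CL and 3.6, 5.9 and 33.1 in CV. The CVL signal lay below the offset of 3.9, so the size of its change in CV is uncertain, and the rise was nearly all at H.

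Enzymes of protein breakdown and of polyketide synthesis gave 1 member each. AT2G27420 encodes a papain-type cysteine protease, and read 39.0, 9.8 and 2.7 over L, M and H in CL, against 20.5, 66.5 and 46.1 in CV. It had the largest fall in CL of the named members (-2.17), of uncertain size because CLH was below the offset. AT4G00040, of the chalcone and stilbene synthase family, was at 38.6, 19.7 and 22.2 in CL and at 17.3, 33.6 and 43.9 in CV. This is a dim gene whose low arrays lay between 17.3 and 22.2.

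RNA-linked members were dim apart from the ribosomal RNA. AT4G10070 encodes a KH domain protein, a domain that binds RNA, with 39.4, 23.8 and 21.1 in CL and 5.8, 15.6 and 33.4 in CV. AT4G38020, of the SpoU family of tRNA and rRNA methyltransferases, had 24.4, 13.3 and 12.2 in CL and 15.5, 43.6 and 40.5 in CV, so both later CV arrays exceeded CLL. AT2G28600 had 33.5, 19.3 and 18.0 in CL and 15.2, 34.1 and 22.3 in CV. The probe set of AT3G41768, the 18S ribosomal RNA, read 387.6, 199.8 and 191.5 in CL, against 80.7, 290.3 and 88.4 in CV. Its high arrays were CLL and CVM, and CVH stayed close to CVL.

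**Figure D3:**
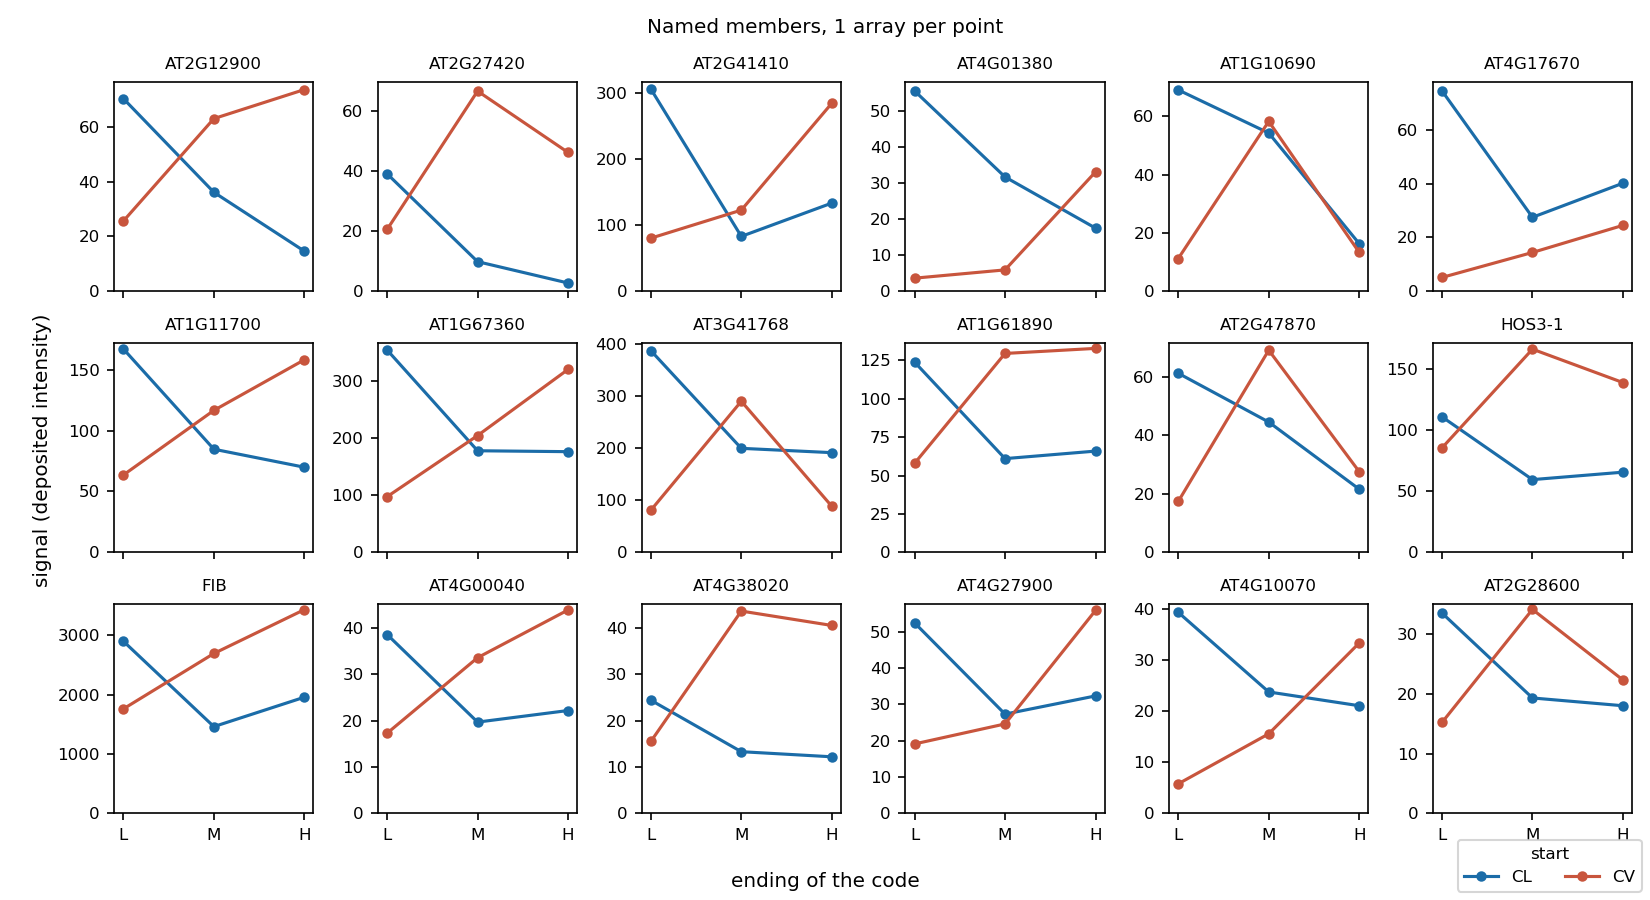
Signal (deposited intensity, linear axis from 0) of the 18 named members at endings L, M and H, in blue for CL and red for CV, with 1 array per point and no error bars because each code had 1 array. In every panel the blue line falls from L to both later endings and the red line rises. AT1G10690, AT2G47870, AT3G41768 and AT2G28600 return most of the way at H in CV.

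The largest changes belonged to unnamed probe sets, chosen for mention after their values were seen. Ranked by the smaller of the changes in the 2 starts, the first 8 members were all unnamed. The first, 16073_f_at, read 538.4, 103.0 and 134.3 over L, M and H in CL, against 61.8, 317.9 and 426.1 in CV. The second, 17775_at, had 237.5, 54.6 and 64.2 in CL and 63.6, 262.1 and 593.0 in CV, with CVH far above CLL. Among the brightest was 16429_at, with 2934.6, 1571.4 and 1719.5 in CL and 1561.4, 4039.7 and 2803.7 in CV. Over the 55, 14 (25.5%) carry an ID suffix other than plain _at, with which the array's maker marks probes that may match several transcripts or were picked under relaxed rules, against 28.8% of the 4425.

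The members nearest the threshold were AT4G10070 (-0.718 in CL and 1.475 in CV), AT2G28600 (-0.731 and 0.724) and the unnamed 13180_s_at (-0.73 and 0.948). Nearest outside it were AT1G09230 (-1.124 and 0.691), the unnamed 19494_at (-0.692 and 0.69) and the unnamed 16536_at (-0.688 and 1.781). A further 71 probe sets met both changes with a mean signal under 20 and were left out by the rule, so the members are the brighter part of those with this pattern.

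How the starts differ over all 3 endings, and how H differs from M, are contrasts other than the changes from L that the rule used. Both were tested with limma over 5773 probe sets in a fit that held the change from L within each start as terms, so that the changes used to choose the members did not enter the error. That fit left 1 residual degree of freedom, which is the difference between the starts in H minus M. Nothing shows that the arrays came from separately grown plants, so the p-values cover the spread among 6 arrays, which may be technical.

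Averaged over the endings, the members lay on both sides of 0 between CV and CL. The median fitted difference of CV minus CL was 0.06 over the 55, with 29 higher and 26 lower in CV, and -0.10 over all probe sets tested, of which 59.5% were lower in CV. At a Benjamini-Hochberg adjusted p under 0.05, 9 members (16.4%) were called, against 5.01% of all probe sets. Of these 5 were lower in CV, against 2.88% of all probe sets, and 4 higher, against 2.13%. The rule's minimum of 20 is not independent of this contrast: 10 members averaged under 20 in 1 start and passed only through the other, in which they were higher, and 4 of the 9 called are among these 10 (AT2G27420, AT4G17670, AT4G01380 and the unnamed 12128_at). The count of members called is therefore a description, and nothing is read from its share beside that of all probe sets.

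AT2G27420, the cysteine protease gene, was higher in CV by 1.49 on the log2 scale (SE 0.37, 3 arrays against 3, limma adjusted p = 0.0063). Its signal averaged 17.2 over the CL arrays, under the minimum of 20, and 44.4 over the CV arrays, and it was lower in CV at L (-0.81) and higher at M (2.36) and H (2.92). AT4G17670, the zinc finger gene, was lower in CV by a log2 difference of -1.51 (SE 0.35, limma adjusted p = 0.0035). It was lower at all 3 endings, most at L (-3.12, against -0.78 at M and -0.63 at H), and averaged 47.4 in CL and 14.7 in CV. AT4G01380, the plastocyanin-like gene, differed by -1.35 (SE 0.42, limma adjusted p = 0.044), with lower signals in CV at L and M and a higher one at H, and averaged 34.9 in CL and 14.2 in CV. AT3G41768, the 18S ribosomal RNA, differed by -0.92 (SE 0.29, limma adjusted p = 0.045), lower in CV at L and H and higher at M. The 5 unnamed called members had differences of 1.38 (16637_s_at), 1.26 (12128_at), 1.16 (17775_at), -1.15 (17075_s_at) and -1.49 (13212_s_at). AT2G27420, AT4G17670, AT4G01380 and 12128_at passed the minimum only through the start in which they averaged higher. Their calls and p-values are therefore descriptions.

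With 1 array left out of an additive fit, the difference of AT2G27420 ran from 0.77 (without CLH or CVH) to 2.64 (without CLL or CVL). Those of AT4G17670 and AT4G01380 ran from -1.95 and -2.42 (without CLH or CVH) to -0.71 and -0.54 (without CLL or CVL). The difference of AT3G41768 ran from -1.65 (without CLM or CVM) to -0.28 (without CLL or CVL). Without CLL or CVL the fitted difference is the mean of those at M and H, so it holds the changes by which the members were chosen.

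None of these calls held in every fit. The additive model of start and ending, in which the opposite changes of the members count as error, called 0 of the 55, and the fit without an intensity trend in the variance also called 0. With the trend the variance was set almost wholly by probe sets of like intensity, with 68.3 prior degrees of freedom against the single residual one, so a probe set that varies more than others of its level is called more readily.

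Between H and M the members had a median fitted difference of 0.14, against 0.04 over all probe sets, with 33 higher and 22 lower at H. Limma called 0 of the 55 and 0.104% of all probe sets. At an unadjusted limma p under 0.05 there were 13 members (23.6%) and 6.11% of all probe sets. The members were chosen for large changes in means that include the M and H arrays. A probe set that varies more than others of its level is also called more readily, so nothing is read from this share. AT1G10690, the cell cycle inhibitor gene, came closest, at -1.69 (SE 0.41, 2 arrays against 2, limma adjusted p = 0.053), with differences of -1.53 in CL and -1.85 in CV. In additive fits with 1 array left out it ran from -2.36 (without CLM) to -1.02 (without CVM). The limma adjusted p of AT1G10690 was 0.027 without CVL and 0.093 without CLL. With all 6 arrays it was 0.06 with an offset of 16, 0.13 after quantile normalization and 0.18 with an offset of 1. It was 0.45 with a mean signal of 20 or more and 0.46 without the intensity trend. Without a filter it was 0.87, and with the additive model 0.99. Among the named members with the same sign in both starts, the next lowest at H were AT2G47870 (-1.07), AT3G41768 (-0.87), AT2G27420 (-0.77) and AT2G28600 (-0.31). On the higher side were AT2G41410 (0.92, SE 0.34, limma adjusted p = 0.46), AT4G27900 (0.64), AT4G17670 (0.56), FIB (0.38) and AT4G00040 (0.25). The value of AT2G41410 ran from 0.05 without CVH to 1.79 without CLH, and its second probe set had a fitted difference of 0.90. The 21 unnamed members with the same sign in both starts had fitted differences from -0.99 to 1.32, so some of them exceeded the named members listed.

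Between single arrays, 31 members were higher at H than at M in CL and 24 (43.6%) lower, against 56.1% lower among the 4425. In CV 37 were higher and 18 (32.7%) lower, against 39.1% lower among the 4425. These shares were not tested. In 23 members H was above M in both starts, in 10 below in both, in 14 below M in CL and above it in CV, and in 8 the reverse.

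Few other genes of the pathways that the members touch could be read on this array under a name. Of 158 genes in 9 lists, 17 were on the array under a name and 16 were tested. The starch list had 3 tested genes, and none passed either test. One was APL3, and the other two, SBE2.2 and APL4, changed from L by -1.17 and -0.51 in CL, against 0.08 and 0.24 in CV. In the fatty acid list 3 genes were tested and none passed: FATA1, an acyl-carrier-protein thioesterase gene, had changes of -1.21 in CL and 1.49 in CV at signals of 2.2 to 26.9, too dim for the rule. FATA2 changed by -0.38 and 0.23 and FATB by -0.14 and -0.01. Of the papain-type protease list, AT2G27420 was called for CV against CL, a call that is a description as said above. RD19B was not called (-0.07, SE 0.50), with changes from L of 0.53 in CL and 0.73 in CV.

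In the antenna list of 3 tested genes, LHCB4.3 was called higher in CV averaged over the endings, though it was lower in CV at L. LHCB1.5 and LHCB4.1 were not called and were higher later in both starts (0.51 and 0.25 in CL, 0.53 and 0.25 in CV). The flavonoid list had DFR as its 1 tested gene, not called. Both tested genes of the cellulose, mannan and xylan list, CSLA01 and TBL26, were called higher in CV averaged over the endings, though both were lower in CV at L. The carotenoid list had 1 tested gene, LYC (-0.20 in CL, -0.04 in CV), and the clock list 1, GI (0.70 and -0.02), neither called, and no gene of the jasmonate list was on the array under a name. SAG29, the 1 measured marker of senescent leaf, changed by 0.44 in CL and 2.05 in CV. None of the 16 was called for H against M.

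Array background, in the opposite direction, and ribosomal RNA signal followed the members' pattern in part. On CVH, where the members were high, they differed from CVL in the members' direction but stayed close to it. The array background given in the labels ran over L, M and H at 56.06, 64.02 and 64.52 in CL and at 73.52, 56.56 and 68.77 in CV, so it was lowest on CLL and CVM and highest on CVL. RawQ, another array value in the labels, ran at 1.62, 1.71 and 1.76 in CL and at 2.00, 1.61 and 1.94 in CV. The part of the background and of RawQ in the changes was not tested.

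Ribosomal RNA signal followed a like order. The control probe set for 25S ribosomal RNA, which is no member because controls were set aside, had 455.2, 232.5 and 265.3 in CL and 114.7, 363.6 and 141.2 in CV, with changes from L of -0.86 and 0.96. On CVH the 18S member and the 25S control were both close to their CVL signals. The part of ribosomal RNA in the changes was not tested. Of the 26 control probe sets with a mean signal of 20 or more, 2 met both changes, the 25S control and an antisense control of a spiked-in transcript. The Arabidopsis actin, GAPDH and ubiquitin controls among them all fell in CL, by -0.84 to -0.42, and changed by -0.50 to 0.20 in CV. The 5S ribosomal RNA control changed by -0.94 in CL and 0.17 in CV. The part of this shared fall from CLL in the members' changes was not tested. The 9 probe sets of the spiked-in BioB, BioC, BioDn and CreX transcripts changed by -0.17 to 0.68 in CL and by 0.12 to 0.85 in CV, with 8 of them above 0 in both starts and 1 CreX probe set at -0.17 in CL and 0.26 in CV. RNA integrity, read as GAPDH signal at the 3-prime end divided by that at the 5-prime end, gave 6.22 on CLH and 5.50 on CVH, against 2.81 to 3.76 on the other 4 arrays. It was high at H in both starts, and its part in the H arrays' values was not tested. A difference between codes and one between single arrays cannot be told apart, since each code had 1 array.

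**Figure D4:**
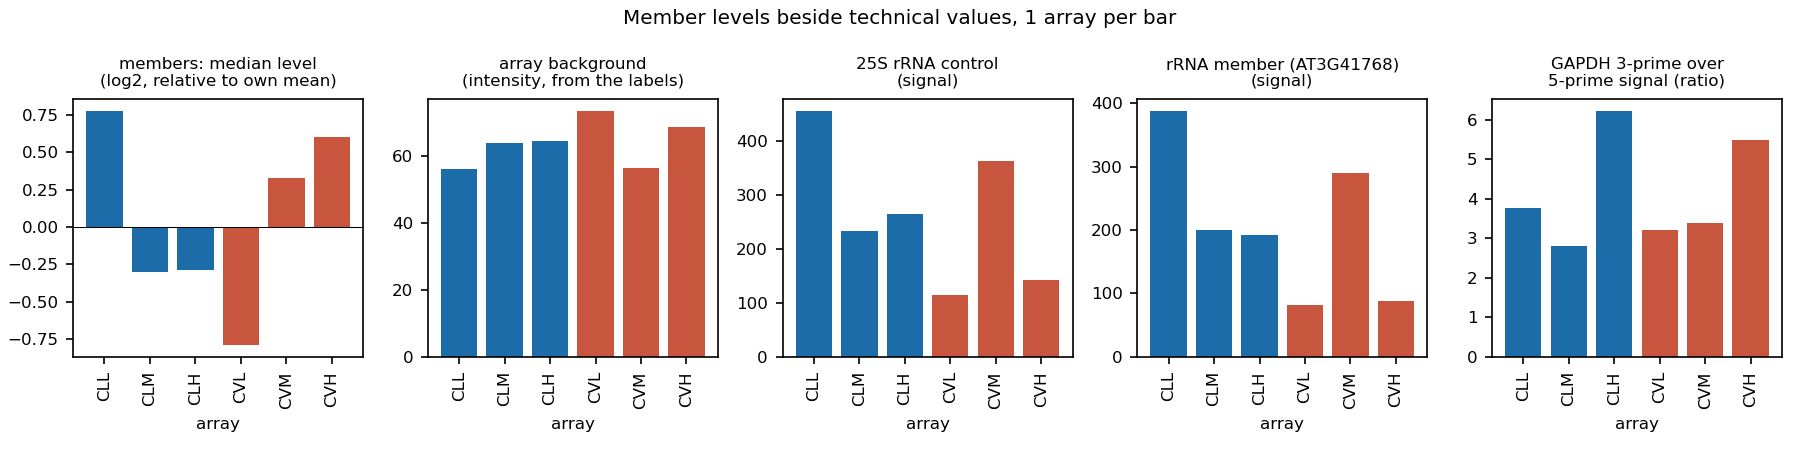
Median relative log2 level of the 55 members, array background, 25S and 18S (AT3G41768) ribosomal RNA signals and the GAPDH 3-prime over 5-prime ratio on each of the 6 arrays, 1 bar per array, blue for CL and red for CV. Background is lowest and ribosomal RNA highest on CLL and CVM, while the members are high on CLL, CVM and CVH.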

How the data were processed

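The file holds intensity values, 1 per probe set and array, as deposited and on a linear scale, for 6 biotin-labelled Affymetrix arrays of 8297 probe sets (per the labels). After 2% of values were trimmed from both ends, every array averaged 100.2, so from the values the arrays share 1 scale; how that was done is not stated. Depth is not defined for arrays, and their number limits the precision. The offset of 3.9 is the 20th percentile of all values, so log2 changes of dim probe sets are understated. The fit left out the 30% of non-control probe sets with the lowest mean (2474). Contrasts were fitted with limma (version 3.58.1, R 4.3.3, lmFit and eBayes, trend = TRUE). The terms were start, later against L within each start, and H against M, with Benjamini-Hochberg adjustment over all 5773 probe sets. The fit was also run on simulated data with noise drawn from its own variances, which cannot test those variances. One gene was paired with 3794 probe sets, several with 70 and none listed for 4383; names came from the platform annotation, updated through the TAIR10.1 table. Members, gene lists and tests were chosen with earlier results of these data known. Named were all members with 1 gene, those called or with the largest same-sign differences, those nearest the threshold and those in the lists. Alternatives were other offsets, filters and normalization, other models and arrays left out. Promoter and protein sequences were not used here.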

Additional observations from a re-analysis of the deposited data

How the results depend on the processing

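The 55 members became 34 with an offset of 16, 83 with a mean signal of 10 or more and 27 with 50 or more. An offset of 1 gave 62, quantile normalization 45, and leaving out 1 later array 52 to 69. Of the 55, 44 stayed without CLM, 44 without CLH, 48 without CVM and 41 without CVH. Without CLL or CVL there is no change to compute. M arrays alone (64) and H arrays alone (77) were chosen after seeing the data. CV against CL called 289 of all probe sets, 2 with the additive model, 8 without the intensity trend, 50 without a filter, 137 with a mean signal of 20 or more, 183 with an offset of 1 and 154 after quantile normalization. Members called went from 9 to 0 with the additive model, 0 without the trend, 1 without a filter and 5 with a mean signal of 20 or more. H against M called 6 probe sets in all, and 0 with the additive model, 0 without the trend, 0 without a filter, 0 with a mean signal of 20 or more, 0 with an offset of 1 and 0 after quantile normalization. With 5 arrays the planned fit has no residual degrees of freedom, so arrays were left out of the additive model. The CV against CL count was then 1 to 257 of all probe sets and 0 to 17 members (251 and 15 without CLL, 257 and 17 without CVL, 55 and 4 without CLH, 57 and 4 without CVH, 1 and 0 without CLM, 1 and 0 without CVM). Without CLL or CVL the difference came from the M and H arrays alone, so it held the changes by which the members were chosen. Nothing is read from the member counts of those fits. The H against M count was 0 to 10 of all probe sets and 0 to 1 members (9 and 0 without CLL, 10 and 1 without CVL, 3 and 1 without CLH, 0 and 0 without CVH, 0 and 0 without CLM, 0 and 0 without CVM). H minus M changed sign without CVH in AT4G27900 (-0.08), AT4G17670 (-0.10) and AT4G00040 (-0.27), without CLM in FIB (-0.03) and AT4G00040 (-0.12), without CVM in AT3G41768 (0.22) and AT2G28600 (0.22), and without CLH in AT2G27420 (0.30). The cause was not tested. No paired analysis was possible because each code had 1 array, so there were no replicates to use as a block; the additive model above sets CV against CL within each ending.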
